A study of Mus musculus with 4 samples.

Results

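Messenger RNAs for the proteins of the mitochondrial ribosome were followed through 4 RNA immunoprecipitation libraries of mouse 4T1 cells. The members were all gene symbols of the deposited table that start with Mrpl or Mrps followed by a digit, and 78 of the 12967 symbols met that rule. Their values came from 122 transcript rows, which were summed per symbol, and 53 members had 1 row. All 78 had a mean of at least 5 CPM (reads scaled to the total of their library) over the 4 libraries and were compared, together with 10283 genes in all.

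4T1 is a metastatic mammary carcinoma line that was derived from BALB/c mice. One line stably carried the SCR control shRNA (shSCR). The other stably carried a CerS4 shRNA (shCerS4), directed at a ceramide synthase of sphingolipid synthesis, and both lines grew in medium with puromycin. Polyadenylated RNA was sequenced after precipitation with an antibody against Caprin-1, a cytoplasmic RNA-binding protein found in stress granules, or with IgG as the background control. The study asked which mRNAs were bound to Caprin-1 when lipid metabolism was altered, with the complex that Caprin-1 forms with the checkpoint ligand PD-L1 in view. The 4 groups, an IgG and a Caprin-1 precipitate of each line, had 1 library each, so no difference has a replicate check and no significance test was possible. The labels do not say whether each line was 1 clone.

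Mitochondrial ribosomes translate the few proteins encoded by mitochondrial DNA, all of them parts of the oxidative phosphorylation system. Their ribosomal RNAs are made inside the organelle, whereas every protein of the particle is encoded in the nucleus, translated on cytosolic ribosomes and imported. Mrpl genes encode proteins of the large subunit, which joins amino acids, and Mrps genes encode proteins of the small subunit, which reads the mRNA. Many of these proteins descend from bacterial ribosomal proteins, and others are found only in mitochondrial ribosomes. The names do not follow the structure everywhere: Mrps18a and Mrps30 belong to the large subunit, and Mrps36 is now assigned to the 2-oxoglutarate dehydrogenase complex. With these placements there were 51 large subunit members, 26 small subunit members and Mrps36.

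The estimated depth was between 19674307 and 27028035 reads per library. Epithelial markers were present, with 7 of 7 (Krt8, Krt18, Krt7, Krt19, Krt14, Epcam and Cdh1) in the table and a summed level between 4080 and 9890 CPM. Of the fibroblast markers 5 of 6 were listed, at a sum of 68.6 CPM in shSCR IgG, 24.5 in shSCR Caprin-1, 43.8 in shCerS4 IgG and 20.9 in shCerS4 Caprin-1. Leukocyte markers were listed for 1 of 6 (Cd68, at 14.6 to 49.1 CPM), and endothelial markers for 1 of 3 (Kdr, at 0.666 CPM in shSCR IgG and at 0, which allows up to 0.111 to 0.152 CPM, in the other libraries). Their part in the results was not tested. No value for Cers4 was analysed here, so the knockdown itself could not be checked.

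Promoter windows from RefSeq (build GRCm38.p6, 250 bases before to 50 after a gene's start) were found for 69 of the 78 members. Nuclear genes for mitochondrial proteins are known for binding sites of the factors NRF1, GABP (of the ETS family) and YY1, so the letters GCATGCGC (NRF1 core), CCGGAAG (ETS and GABP core) and AAGATGG (YY1 core) were searched on both strands. The ETS letters stood in 26 of 75 member windows (34.7%), against 8.86% of all 32851 windows and 19.2% of the windows of compared genes. For the NRF1 letters the figures were 8 windows (10.7%), 2.71% and 5.56%, and for the YY1 letters 13 windows (17.3%), 6.34% and 7.38%. At least 1 of the 3 was present in 38 member windows (50.7%), against 16.6% of all windows and 28.9% of those of compared genes. None of the 3 strings contains another. A match is a description of the letters and not a binding site or a cause.

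The following stretches run from 150 bases before the start to 10 bases from it, 5′ to 3′ on the gene's own strand, with the searched letters in capitals. Mrpl33 and Mrpl34 are shown because their levels were higher in shCerS4 than in shSCR cells in both precipitates, and Mrpl10 because it was lower in both. Mrpl18 and Mrps36, also lower in both, are not printed. The window of Mrpl18 has the ETS letters and that of Mrps36 none of the letters. Mrpl17 and Mrps14 had 2 of the highest Caprin-1 over IgG ratios in shSCR cells. Mrpl33 (chr5:31613801-31613960, plus strand) has the NRF1 letters from 12 bases before its start. Its ETS letters begin 3 bases before the start and run across it. Mrpl34 (chr8:71464776-71464935, plus strand) has the ETS letters 37 bases before it, and Mrpl10 (chr11:97041432-97041591, plus strand) the NRF1 letters 134 bases before it. Mrpl17 (chr7:105811078-105811237, minus strand) has the NRF1 letters 11 bases before its start and, beyond the printed stretch, the ETS letters 237 bases before it. Mrps14 (chr1:160195065-160195224, plus strand) has none of the letters in its window.
Mrpl33: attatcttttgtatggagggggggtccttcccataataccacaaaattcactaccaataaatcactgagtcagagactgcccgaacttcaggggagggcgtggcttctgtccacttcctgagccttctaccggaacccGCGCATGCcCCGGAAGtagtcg
Mrpl34: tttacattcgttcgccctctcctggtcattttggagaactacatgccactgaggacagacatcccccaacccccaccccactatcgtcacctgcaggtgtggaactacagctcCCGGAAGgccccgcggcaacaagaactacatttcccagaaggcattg
Mrpl10: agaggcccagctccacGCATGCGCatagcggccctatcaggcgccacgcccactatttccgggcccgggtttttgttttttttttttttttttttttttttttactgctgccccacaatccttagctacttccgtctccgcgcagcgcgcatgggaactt
Mrpl17: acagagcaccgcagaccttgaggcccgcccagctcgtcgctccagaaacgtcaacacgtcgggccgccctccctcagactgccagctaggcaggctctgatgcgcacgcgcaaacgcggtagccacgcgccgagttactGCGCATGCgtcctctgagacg
Mrps14: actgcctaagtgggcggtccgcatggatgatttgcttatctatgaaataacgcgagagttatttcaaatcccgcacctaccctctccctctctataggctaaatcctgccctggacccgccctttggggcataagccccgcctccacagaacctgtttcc

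Mrpl46 and Mrps11 stand head to head on chromosome 7, with starts 42 bases apart and the 41 bases between them at chr7:78783090-78783130, shown on the plus strand. They are shown because these neighbours, 1 from each subunit, had different Caprin-1 over IgG ratios, given with the head-to-head pairs.
between Mrpl46 and Mrps11: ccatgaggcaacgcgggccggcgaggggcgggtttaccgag

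The members' mRNAs made up more of the Caprin-1 libraries than of the IgG libraries in both cell lines. Their summed level was 3403 CPM in shSCR IgG, 4959 in shSCR Caprin-1, 3479 in shCerS4 IgG and 4525 in shCerS4 Caprin-1, which is 0.34%, 0.496%, 0.348% and 0.452% of each library. The IgG libraries of both cell lines were close to each other, and the shCerS4 Caprin-1 library lay below the shSCR Caprin-1 library. Single members ranged from 4.89 to 167 CPM in shSCR IgG (median 35.3) and from 11.2 to 332 in shSCR Caprin-1 (median 50.8). In shCerS4 cells they ranged from 5.13 to 154 CPM with IgG (median 38.4) and from 9.45 to 204 with Caprin-1 (median 49). The deposited values are not divided by transcript length, so levels are not ranked between genes. Shares are relative to all other RNA in a library, and in such bulk samples fewer cells and less RNA per cell cannot be told apart.

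Below, log2 ratios are given with a 95% counting interval in brackets, which covers counting error only, and not amplification or differences between cultures. A gene is counted as higher or lower when its ratio was at least 1.5-fold (0.58 on the log2 scale) and the interval excluded 0. Where 4 levels of a gene are given in a row, they are CPM in IgG and then Caprin-1 of shSCR cells, followed by IgG and then Caprin-1 of shCerS4 cells. The fewest estimated reads behind any member in any library were 97.

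The first comparison asked how Caprin-1 precipitates differed from IgG precipitates of the same cells. In shSCR cells 73 of 78 members had a ratio above 0 (93.6%), where 42.6% of all compared genes did. The members' median log2 ratio was 0.54 (1.46-fold), and the median of all genes was −0.13. Of the members 30 were counted as higher (38.5%) and 0 as lower, against 11.4% and 27.5% of all genes. Members of the large subunit had a median of 0.56, with 22 of 51 higher, and those of the small subunit 0.41, with 7 of 26 higher. Scaling by a trimmed mean, by the median of ratios or by the upper quartile gave a members' median between 0.71 and 0.72 and between 47 and 49 higher members, with 18.4% to 19.1% of all genes counted as higher and their median between 0.03 and 0.05.

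In shCerS4 cells the pattern had the same direction and a smaller size. There 67 of 78 members had a ratio above 0 (85.9%), against 42.8% of all genes, and their median log2 ratio was 0.36 (1.29-fold) where that of all genes was −0.11. By the 1.5-fold rule 17 members were higher (21.8%) and 0 lower, against 8.69% and 22.6% of all genes. The large subunit had a median of 0.34 with 12 of 51 higher, and the small subunit a median of 0.40 with 4 of 26 higher. With the other scalings the members' median was 0.51 to 0.52 and 30 members were higher, with 14.4% to 15.1% of all genes. The ratios of the cell lines rest on separate libraries, and across the 78 members Pearson's r between them was 0.76 and Spearman's rho 0.71. Over all genes the same figures were 0.88 and 0.88.

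**Figure D1:**
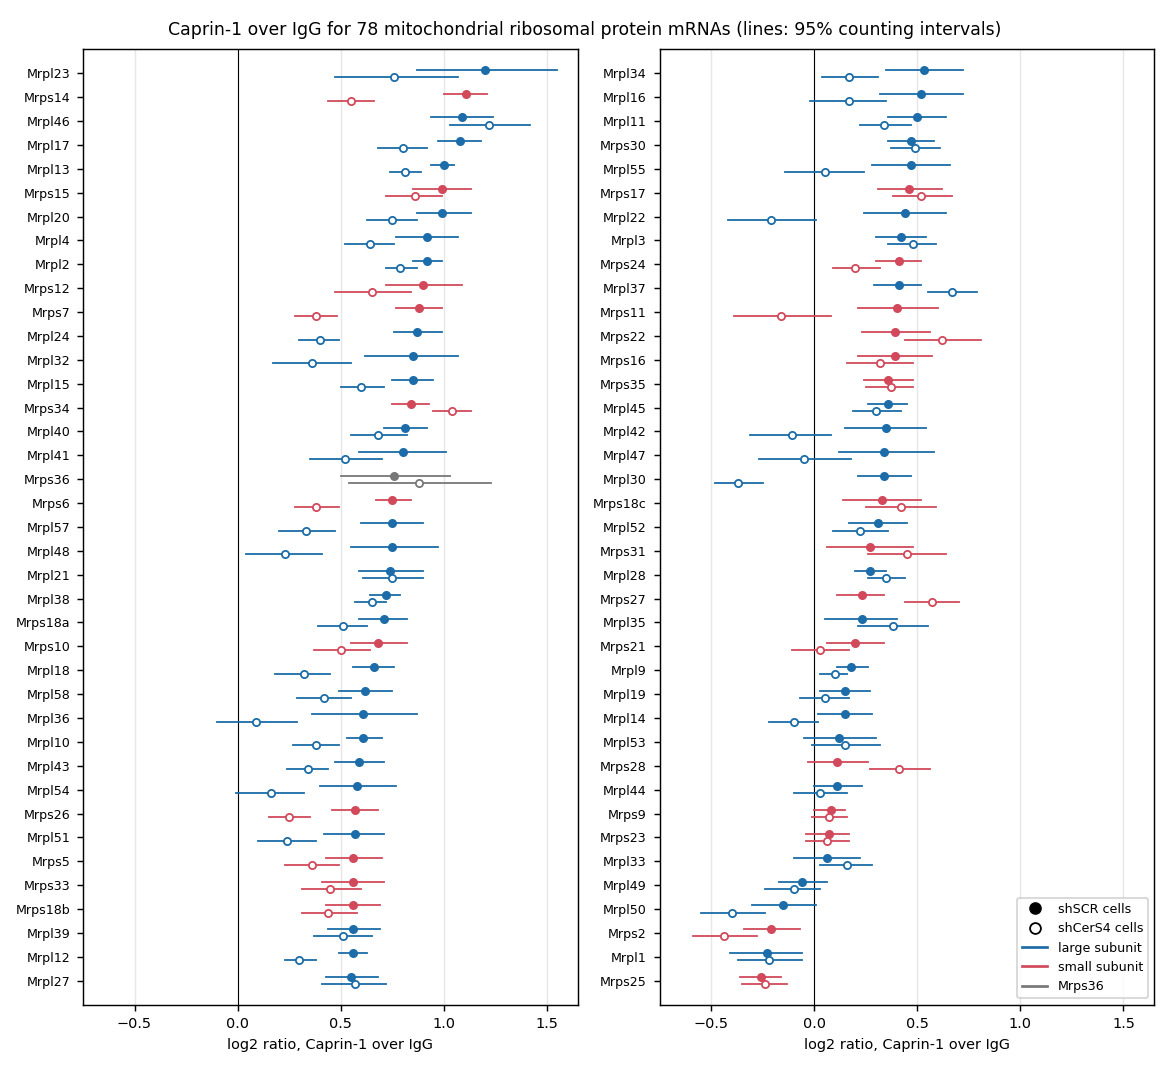
Log2 ratio of Caprin-1 over IgG (x axis) for each of the 78 members, ordered by the ratio in shSCR cells, with filled points for shSCR cells, open points for shCerS4 cells and lines for 95% counting intervals; blue is the large subunit, red the small subunit and grey Mrps36. In shSCR cells 73 members lie above 0 (75 with the other scalings), and in shCerS4 cells 67 do (71 or 72).

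By the rule 15 members were higher with Caprin-1 in both cell lines, namely Mrpl2, Mrpl4, Mrpl13, Mrpl15, Mrpl17, Mrpl20, Mrpl21, Mrpl23, Mrpl38, Mrpl40, Mrpl46, Mrps12, Mrps15, Mrps34 and Mrps36. Over all 10283 compared genes 620 were. Another 15 passed only in shSCR cells and 2, Mrpl37 and Mrps22, only in shCerS4 cells. Of all 10283 genes 1169 passed in shSCR and 894 in shCerS4 cells, each count including the 620. The genes that passed in 1 line only were not counted separately, so the 15 and the 2 have no background share beside them. The interval lay above 0 in both cell lines for 55 members. By line it lay above 0 for 69 members in shSCR and 57 in shCerS4 cells, against 3521 and 3346 of all 10283 genes. The figure in both lines was not computed over all genes.

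Among large subunit proteins with a bacterial homologue, Mrpl13, the counterpart of bacterial L13, was at 167, 332, 109 and 192 CPM. The Caprin-1 library was the higher of each pair, with a ratio of 1.00 [0.94, 1.05] in the shSCR line and 0.81 [0.74, 0.89] in the shCerS4 line. Mrpl17, related to bacterial L17, was at 49.6, 105, 41.6 and 72.3 CPM, with ratios of 1.08 [0.97, 1.18] and 0.80 [0.68, 0.92]. Mrpl2, the counterpart of bacterial L2 near the peptidyl transferase centre, was at 113, 213, 118 and 204 CPM. Its 2 Caprin-1 libraries lay close together, and both IgG libraries were far below them, with ratios of 0.92 [0.85, 0.99] and 0.79 [0.72, 0.87]. Mrpl23, at the rim of the tunnel through which the new protein leaves, had the highest ratio in shSCR cells, 1.20 [0.87, 1.55], at low levels of 4.89, 11.2, 7.07 and 12 CPM. Mrpl12, the counterpart of the stalk protein L7/L12 that contacts translation factors, was at 114, 169, 119 and 147 CPM, with ratios of 0.56 [0.49, 0.63] and 0.30 [0.23, 0.38], which are below 1.5-fold. Mrpl9, one of the members at high CPM with 122, 138, 154 and 165, was close to even, at 0.18 [0.11, 0.26] and 0.10 [0.03, 0.16].

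For the mitochondria-specific proteins of the large subunit the median was 0.56 in the shSCR line and 0.30 in the shCerS4 line, beside 0.56 and 0.36 for those with a bacterial homologue. Several of them form the central protuberance, the crown of the large subunit. Of these, Mrpl46 was at 23.5, 50, 15.6 and 36.3 CPM, and its ratios of 1.09 [0.94, 1.24] and 1.22 [1.03, 1.42] were among the highest in each cell line. Mrpl38 was at 117, 192, 112 and 176 CPM, with ratios of 0.72 [0.64, 0.79] and 0.65 [0.57, 0.72]. Mrpl40 was at 50.2, 88.3, 34.4 and 55.3 CPM, with 0.81 [0.71, 0.92] and 0.68 [0.55, 0.82]. All 3 were higher with Caprin-1 in both lines. Mrpl48, also of the central protuberance, was at 13.8, 23.2, 21.1 and 24.7 CPM, with 0.75 [0.55, 0.97] in shSCR and 0.23 [0.04, 0.41] in shCerS4 cells. Its ratio in shSCR cells was −0.21 when only its most abundant of 5 transcript rows was used, so its direction there depended on the rows counted. The next members are of the tunnel exit and of peptide release. Mrpl45, which holds the ribosome to the inner membrane beside the tunnel exit, was at 73.7, 94.4, 52.6 and 65 CPM, with ratios of 0.36 [0.26, 0.45] and 0.30 [0.19, 0.42]. Mrpl58, a peptidyl-tRNA hydrolase built into the large subunit, was at 35, 53.8, 39.1 and 52.5 CPM, with 0.62 [0.49, 0.75] and 0.42 [0.29, 0.55].

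In the small subunit, Mrps14 of the head was at 51.9, 112, 54.1 and 79.3 CPM. Its IgG libraries were nearly equal and its Caprin-1 library was higher in shSCR than in shCerS4 cells, so that the ratio was 1.11 [1.00, 1.21] in shSCR and 0.55 [0.44, 0.66] in shCerS4 cells. Mrps34, which is specific to mitochondria, was at 71.2, 128, 72.2 and 148 CPM, with ratios of 0.84 [0.75, 0.93] and 1.04 [0.95, 1.13]. Mrps15, related to bacterial S15, was at 29.1, 58, 34.3 and 62.1 CPM, with 0.99 [0.85, 1.13] and 0.86 [0.72, 0.99]. Mrps12, the counterpart of the bacterial S12 protein at the decoding centre, was at 17.4, 32.6, 18.7 and 29.3 CPM, with 0.90 [0.72, 1.09] and 0.65 [0.47, 0.84]. All 4 were thus above IgG in both lines, and Mrps14 was just below 1.5-fold in shCerS4 cells. The 3 relatives of bacterial S18 were Mrps18a in the large subunit, with 0.71 [0.59, 0.82] and 0.51 [0.39, 0.63], Mrps18b, with 0.56 [0.43, 0.69] and 0.44 [0.31, 0.58], and Mrps18c, with 0.33 [0.14, 0.52] and 0.42 [0.25, 0.59]. In the groupings used here Mrps18c was counted with the bacterial homologues, and Mrps18a and Mrps18b with the mitochondria-specific members. Mrps36 was at low levels of 8.37, 14.2, 5.13 and 9.45 CPM, with ratios of 0.76 [0.50, 1.03] and 0.88 [0.54, 1.23].

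Ratios below 0 in both cell lines were found for 5 members, none of them by 1.5-fold, and for 3 of these (Mrps25, Mrps2 and Mrpl1) with each of the other scalings. By line 57.4% of all genes were below 0 in shSCR and 57.2% in shCerS4 cells. Mrps25, specific to mitochondria, was at 76.1, 63.4, 65.1 and 55.1 CPM, with ratios of −0.26 [−0.36, −0.16] and −0.24 [−0.35, −0.13]. Mrps2, related to bacterial S2, was at 40.5, 35.2, 36.9 and 27.2 CPM, with −0.21 [−0.34, −0.07] and −0.44 [−0.59, −0.28]. Mrpl1, of the L1 stalk, was at 24.5, 20.8, 32.3 and 27.8 CPM, with −0.23 [−0.41, −0.06] and −0.22 [−0.37, −0.06]. In these 3 the Caprin-1 library was the lower of each pair. Mrpl50 was at 31.7, 28.6, 37 and 28.1 CPM, with −0.15 [−0.30, 0.01] and −0.40 [−0.55, −0.24], and for Mrpl49 both intervals included 0. With the other scalings Mrpl49 was above 0 in both lines and Mrpl50 above 0 in shSCR cells. Of the others 6, namely Mrpl14, Mrpl22, Mrpl30, Mrpl42, Mrpl47 and Mrps11, were above 0 in shSCR and below 0 in shCerS4 cells. That order held for Mrpl22 and Mrpl30 with every scaling run and for Mrps11 with 2 of the 3 others, whereas Mrpl14, Mrpl42 and Mrpl47 were above 0 in both lines with each of the others. Neither the genes below 0 in both lines nor those with that order were counted over all compared genes.

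**Figure D2:**
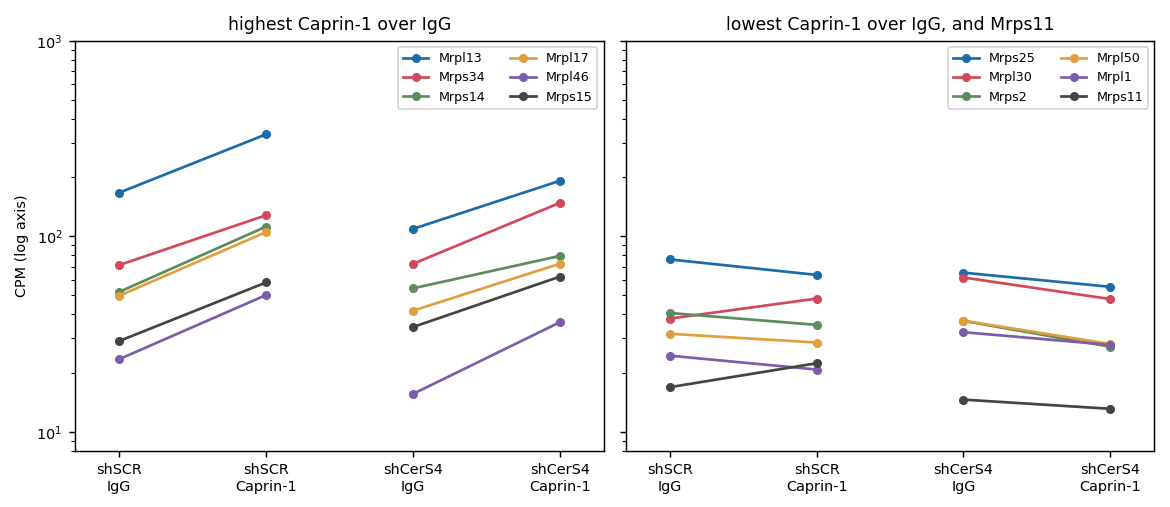
Levels in CPM (log axis) of 6 members with high Caprin-1 over IgG ratios (left) and of 6 others, 5 with low ratios and Mrps11 (right), in the 4 libraries; lines join the IgG and Caprin-1 libraries of one cell line, and each point is 1 library. The lines on the left slope upward in both cell lines, and on the right those of Mrpl30 and Mrps11 slope upward in shSCR and downward in shCerS4 cells; with trimmed-mean scaling Mrps11 would not slope downward.

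The members were set beside 2 other groups of nuclear-encoded proteins. The 77 compared mRNAs for oxidative phosphorylation subunits, the machinery that mitochondrial translation feeds, had a median ratio of 0.59 in shSCR cells, with 39 counted as higher (50.6%). In shCerS4 cells their median was 0.47, with 28 higher (36.4%). The 81 compared mRNAs for cytosolic ribosomal proteins had medians of 0.30 and 0.08, with 15 and 9 higher (18.5% and 11.1%). Of all genes 11.4% and 8.69% were higher. The members' medians of 0.54 and 0.36 lay between those of the 2 groups. No test of the differences between these groups was made.

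**Figure D3:**
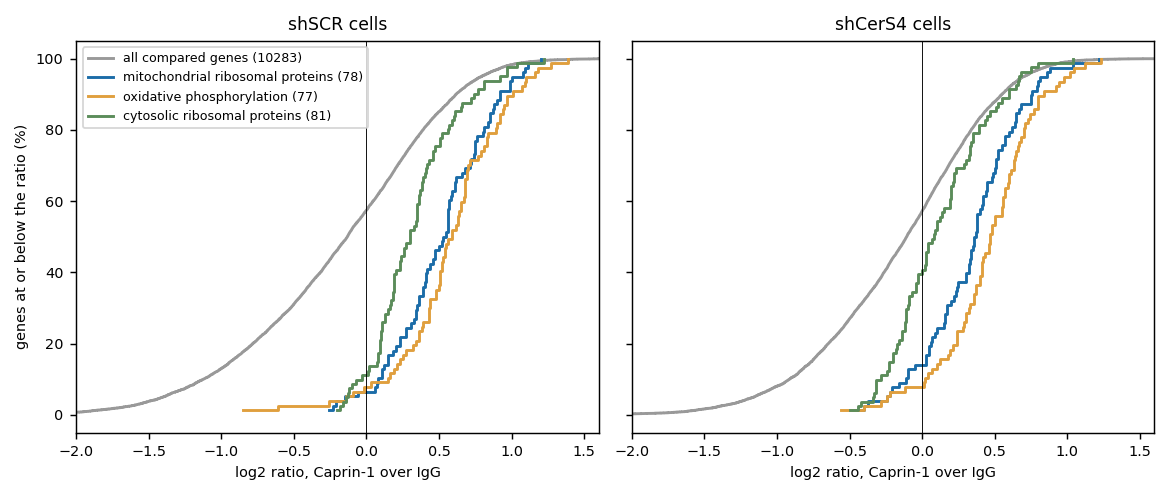
Cumulative share of genes (y axis, percent) at or below a given log2 ratio of Caprin-1 over IgG (x axis) in shSCR cells (left) and shCerS4 cells (right), for the 78 members, 77 oxidative phosphorylation mRNAs, 81 cytosolic ribosomal protein mRNAs and all 10283 compared genes. The curve of the members lies to the right of that of all genes, with medians of 0.54 and 0.36 against −0.13 and −0.11.

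The other mRNAs of mitochondrial translation are given beside the shares of all genes, 11.4% higher and 27.5% lower in shSCR cells and 8.69% and 22.6% in shCerS4 cells. The 5 ribosomal proteins with other symbols (Dap3, Ptcd3, Chchd1, Gadd45gip1 and Aurkaip1) had median ratios of 0.23 and 0.36, and 0 of them were counted as higher in either line. Of 15 translation factors, 5 were higher (33.3%) and 1 lower (6.67%) in the shSCR line, against 0 and 1 in the shCerS4 line, with medians of 0.41 and 0.11. The initiation factor gene Mtif3 had the highest of these ratios in shSCR cells, 0.83 [0.66, 1.00], and Lrpprc, which stabilises mitochondrial mRNAs, the lowest, −1 [−1.11, −0.90]. Of 25 assembly factors 7 were higher (28%) in each line and 0 and 1 lower, the 1 being Gtpbp10 at −0.63 [−0.80, −0.46], with medians of 0.21 and 0.22. Of 19 mitochondrial aminoacyl-tRNA synthetases, which charge the tRNAs, 3 and 4 were higher (15.8% and 21.1%) and 2 and 1 lower (10.5% and 5.26%), and Lars2 was lowest at −1.20 [−1.26, −1.14] and −1.48 [−1.55, −1.40]. The 10 regulators of mitochondrial gene expression had medians of −0.24 and −0.26, with 0 and 1 higher and 2 and 1 lower (20% and 10%).

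Genomic span moved with the Caprin-1 over IgG ratio over all genes. Spearman's rho between span and ratio was −0.54 in shSCR and −0.48 in shCerS4 cells over 10276 genes with a position, whereas within the 78 members it was −0.23 and 0.03. Members are short genes, with a median span of 7690.5 bases against 23464.5 for all compared genes, and they range from 825 bases (Mrpl53) to 121712 (Mrps28). Set against the median of genes in the same of 20 span bins, the members' median excess was 0.32 in the shSCR line (66 of 78 above their bin) and 0.21 in the shCerS4 line (54 of 78). The same figures were 0.43 and 0.39 for oxidative phosphorylation and −0.06 and −0.16 for cytosolic ribosomal proteins. The part of span itself, and of mRNA length, which was not analysed here, was not tested.

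**Figure D4:**
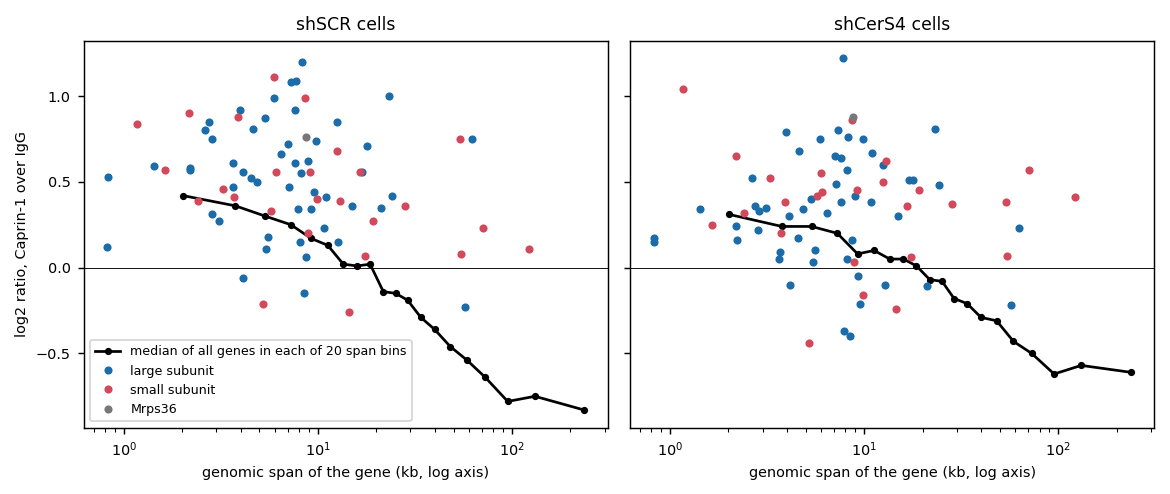
Log2 ratio of Caprin-1 over IgG (y axis) against genomic span (x axis, kilobases, log axis) for the members in shSCR cells (left) and shCerS4 cells (right), with the median of all genes in each of 20 span bins as a black line. In shSCR cells 66 of 78 members lie above the median of their bin, and in shCerS4 cells 54 do.

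The study's primary comparison was Caprin-1 in shCerS4 against shSCR cells. For the members it was near balance, with a median log2 ratio of −0.03 where all genes had 0.15. Of the members 2 were higher (2.56%) and 7 lower (8.97%), against 19.2% and 10.9% of all genes. The 2 higher were Mrpl33 and Mrpl34, and the 7 lower were Mrpl10, Mrpl13, Mrpl18, Mrpl40, Mrps6, Mrps11 and Mrps36. With the other scalings 1 was higher and 12 or 13 lower, with 13.8% to 14.8% of all genes higher and 13.8% to 14.6% lower, and the members' median was −0.13 to −0.16 where that of all genes was 0.02 to 0.04.

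In the IgG precipitates the members' median was 0.13, close to the 0.10 of all genes. There 9 members were higher (Mrpl4, Mrpl24, Mrpl30, Mrpl32, Mrpl33, Mrpl34, Mrpl36, Mrpl41 and Mrpl48) and 5 lower (Mrpl10, Mrpl13, Mrpl18, Mrpl46 and Mrps36), which is 11.5% and 6.41%, against 17.3% and 11.7% of all genes. All 9 that were higher belong to the large subunit, where they are 17.6% of 51, close to the share of all genes, and the subunits were not tested against each other. With the other scalings 7 or 8 were higher and 8 or 9 lower, with 13.2% to 14.2% of all genes higher and 13.8% to 14.6% lower, so the balance of higher and lower members depended on the scaling. Mrpl33 and Mrpl34 were higher with both antibodies, and Mrpl10, Mrpl13, Mrpl18 and Mrps36 lower with both. How many of all genes were higher or lower with both was not counted, so these members are not shown to differ from other genes. Across the 78 members the Caprin-1 and IgG ratios, which share no library, had a Pearson r of 0.82 and a Spearman rho of 0.80, beside 0.89 and 0.83 over all genes.

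Mrpl18, related to the bacterial L18 protein of the central protuberance, was the lowest member of this comparison. It was at 63.4, 100, 37.8 and 47 CPM, so both shCerS4 libraries lay below both shSCR libraries, with ratios of −1.09 [−1.19, −0.99] with Caprin-1 and −0.75 [−0.88, −0.62] with IgG. Mrpl10, at the base of the stalk that Mrpl12 extends, was at 83.2, 127, 54 and 70.3 CPM, with −0.85 [−0.94, −0.77] and −0.62 [−0.73, −0.51]. For Mrpl13, whose levels are given above, the ratios were −0.79 [−0.84, −0.74] and −0.61 [−0.69, −0.53]. Each of the 3 was thus lower in shCerS4 cells with either antibody, and Mrpl12, the partner of Mrpl10, was at −0.20 [−0.27, −0.14] and 0.05 [−0.03, 0.14]. Mrpl40 had −0.68 [−0.77, −0.58] and −0.55 [−0.69, −0.40], below 1.5-fold with IgG.

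Mrpl33 and Mrpl34 encode very small proteins of the large subunit that are related to bacterial L33 and L34. Mrpl33 was at 26.5, 27.6, 44.7 and 49.8 CPM, with ratios of 0.85 [0.72, 0.98] with Caprin-1 and 0.75 [0.60, 0.91] with IgG. Mrpl34 was at 18.8, 27.3, 38 and 42.9 CPM, with 0.65 [0.52, 0.79] and 1.01 [0.83, 1.20]. Both shCerS4 libraries lay above both shSCR libraries for each gene. Mrpl36, a further small protein related to bacterial L36, was at 9.63, 14.7, 19.6 and 20.8 CPM, and with IgG it had the highest member ratio, 1.02 [0.77, 1.28], whereas its Caprin-1 ratio of 0.50 [0.31, 0.70] was below 1.5-fold. The ETS letters of Mrpl34 and the NRF1 and ETS letters of Mrpl33 stand in the stretches printed above, and Mrpl10, which was lower, has the NRF1 letters too. Mrpl18, also lower, has the ETS letters in its window, so these letters were found on both sides.

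In the small subunit 2 of 26 members were lower with Caprin-1 (7.69%) and 0 with IgG, against 10.9% and 11.7% of all genes. Neither share exceeded that of all genes. Mrps6, related to bacterial S6, was at 77.8, 131, 63.3 and 82.6 CPM, with −0.67 [−0.75, −0.59] with Caprin-1 and −0.30 [−0.41, −0.19] with IgG. Mrps11, related to bacterial S11 of the platform, was at 16.9, 22.4, 14.6 and 13.1 CPM, with −0.77 [−0.97, −0.57] and −0.21 [−0.44, 0.02]. The highest small subunit member with Caprin-1 was Mrps31, specific to mitochondria, with 0.44 [0.27, 0.61] beside 0.26 [0.04, 0.48] with IgG, and with IgG it was Mrps26, with 0.55 [0.43, 0.68]. Each was below 1.5-fold. Mrps36, outside the ribosome, was lower with both, at −0.59 [−0.83, −0.35] and −0.70 [−1.08, −0.34].

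**Figure D5:**
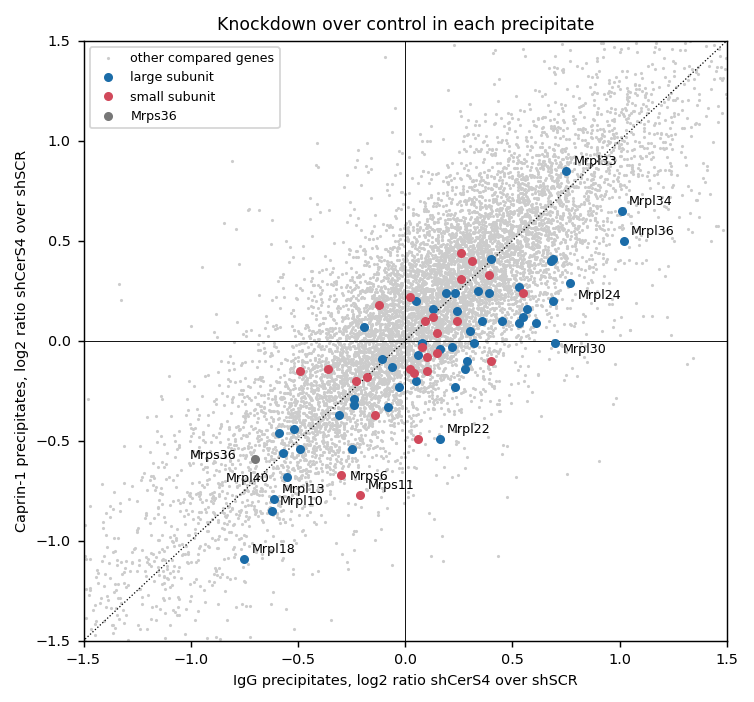
Log2 ratio of shCerS4 over shSCR in IgG precipitates (x axis) and in Caprin-1 precipitates (y axis), with large subunit members in blue, small subunit members in red, Mrps36 in dark grey and other compared genes in light grey; the dotted line marks equal ratios, and genes beyond 1.5 on either axis are not shown. Mrpl33 and Mrpl34 are at the upper right, and Mrpl18, Mrpl10 and Mrpl13 at the lower left.

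Chromosome medians differed in the knockdown ratio, so each member was also set beside its surroundings. For the other genes the median Caprin-1 ratio ranged from −0.15 on chromosome 11 to 0.45 on chromosome 8. The median of the 10 nearest compared genes on either side correlated with the member at a Pearson r of 0.46 with Caprin-1 and 0.32 with IgG over the 78 members. Mrpl33 stood 0.47 above its neighbours (median 0.38) and Mrpl34 0.17 above its own (0.48). Mrpl18 was 1.16 on the log2 scale below its neighbours, whose median was 0.07, and Mrpl40 was 0.63 below a median of −0.05. Mrpl10 and Mrpl13 lay in surroundings that were themselves lower, with medians of −0.37 and −0.33, and stood 0.48 and 0.46 below them. Over all members the median difference from the neighbours was −0.12 with Caprin-1 and 0.01 with IgG.

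The last comparison subtracted the shSCR from the shCerS4 log2 ratio of Caprin-1 over IgG, which asks whether the share recovered with Caprin-1 differed after adjustment for IgG. It uses all 4 libraries and shares them with each comparison above. The members' median was −0.17, where that of all genes was 0.04, and 57 of 78 members (73.1%) were below 0, against 44% of all genes. By 1.5-fold 0 members were higher and 2 lower (2.56%), against 4.24% and 2.62% of all genes, so with total scaling neither share exceeded the background. With the trimmed mean, the upper quartile and the median of ratios 2, 3 and 4 of 78 were lower, with 2.69%, 3.09% and 3.13% of all genes. Whether the lower share exceeded the background therefore depended on the scaling. The interval lay below 0 for 37 of 78 members and above 0 for 4, against 2153 and 3027 of the 10283 compared genes. The large subunit had a median of −0.23 and the small subunit −0.11, and the 10 mitochondria-specific small subunit members had 0.02 with 6 above 0. For oxidative phosphorylation the median was −0.16, and for cytosolic ribosomal proteins it was −0.20 with 77 of 81 below 0. Against genes of like span the members' median was −0.11, and 57 of 78 were below their bin.

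The 2 members past 1.5-fold were Mrpl30 and Mrpl22, both of the large subunit with bacterial homologues. Mrpl30 was at 37.9, 48, 61.5 and 47.7 CPM, where the shCerS4 IgG library stood above the other 3. Its difference was −0.71 [−0.88, −0.53], from ratios over IgG of 0.34 [0.21, 0.47] in shSCR and −0.37 [−0.48, −0.25] in shCerS4 cells. Mrpl22, whose bacterial counterpart lines the exit tunnel, was at 15.7, 21.3, 17.5 and 15.2 CPM, where the shSCR Caprin-1 library was the highest, with a difference of −0.65 [−0.94, −0.36]. Next came Mrps11 with −0.56 [−0.86, −0.26] and Mrps14 with −0.55 [−0.70, −0.40], in which the Caprin-1 level was lower in shCerS4 cells. In Mrps7, the counterpart of bacterial S7, the levels of 46.4, 85.5, 61.2 and 79.6 CPM gave a difference of −0.50 [−0.65, −0.35]. Its IgG level was higher and its Caprin-1 level slightly lower in shCerS4 cells.

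At the other end, Mrps27, a small subunit protein of the pentatricopeptide repeat type, was at 50.4, 58.9, 35.8 and 53.2 CPM, with a difference of 0.34 [0.17, 0.52]. Mrps28 was at 34.2, 37, 31.6 and 42 CPM, with 0.30 [0.10, 0.50]. Mrpl37 of the large subunit was at 47.1, 62.4, 41.2 and 65.5 CPM, with 0.26 [0.09, 0.43]. For Mrps27 the ratio of shCerS4 over shSCR was −0.15 [−0.25, −0.04] with Caprin-1 and −0.49 [−0.63, −0.35] with IgG, so it was lower in shCerS4 cells with either antibody. Mrps34 was at 0.19 [0.07, 0.32].

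Some members lie close to other genes, which bears on how reads are assigned, because the strand of the reads was not given in the sources used here. The span of 25 members overlaps that of another gene, among them Mrpl18 (Tcp1), Mrps25 (Nr2c2), Mrps2 and Mrps7, and reads from overlapping genes cannot be told apart without strand. For those 25 the median Caprin-1 over IgG ratio was 0.41 in shSCR cells and 0.33 in shCerS4 cells, and for the 53 without overlap it was 0.56 and 0.38.

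Head-to-head pairs, with starts at most 1000 bases apart on opposite sides, were found for 22 members in 21 pairs with a compared partner. The members' median ratio over IgG in shSCR cells was 0.59 and that of their partners 0.04, and the member was the higher in 16 of 21 pairs. In shCerS4 cells the medians were 0.38 and 0, with the member higher in 14. In the pair of Mrpl46 and Mrps11 both genes are members, and these figures count Mrpl46 as the member and Mrps11 as the partner. Within the pair whose intervening bases are printed above, Mrpl46 had 1.09 and 1.22 in the 2 lines and Mrps11 0.40 [0.21, 0.60] and −0.16 [−0.39, 0.08], and the intervals of the 2 genes did not overlap in either line. Mrpl18 starts 238 bases from Tcp1, a chaperonin subunit gene at 693, 712, 621 and 647 CPM, whose Caprin-1 knockdown ratio was −0.14 beside −1.09 for Mrpl18. Mrpl27 and Eme1, a DNA repair nuclease gene, start 48 bases apart, with knockdown ratios in Caprin-1 precipitates of −0.56 and −2.35. Over the 21 pairs the knockdown ratios of member and partner had a Pearson r of 0.25 with Caprin-1 and 0.13 with IgG.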

How the data were processed

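RNA from 4 immunoprecipitates was sequenced, 1 library per group. Per the submitters' processing notes, STAR and Partek were used with mm10; versions were not given in the sources used here. The deposited table holds CPM per transcript, although it is named as raw counts, with 0.0001 added to each value and removed here. The steps between low values show what 1 read is worth, which gave depths of 19674307 to 27028035 reads. Below 40 CPM, whole reads to within 0.05 came out for 79.7% to 81.4% of gene values, so no count-based test was used. The counting intervals still treat the estimated reads as counts, including those that were not whole. Transcripts were summed per symbol, and a gene was compared if its mean reached 5 CPM. Log2 ratios were scaled to totals with 0.5 reads added, with 95% intervals from counting error alone (exact Clopper-Pearson on the estimated reads, and a normal approximation for the difference of ratios). All 78 members matched RefSeq by symbol. RNA yield was not given, so ratios are relative to each library.

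The members and the gene lists were chosen with earlier results of these data known. Named members were 9 chosen for their role, the 4 highest and 4 lowest ratios of each comparison among those with a mean of 20 CPM or more, the 5 highest and 5 lowest by mean CPM and those past 2-fold, and others are named because they passed 1.5-fold. Alternatives were other scalings, filters, added reads, transcripts, folds, intervals and like-span genes. Calculations used Python 3.11.15, pandas 2.3.3, numpy 2.4.6 and scipy 1.17.1, and were tested on simulated data.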

Additional observations from a re-analysis of the deposited data

Results flagged for a closer look

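For 4 members the Caprin-1 over IgG ratio differed between the cell lines in one of the ways that were looked for, and with 1 library per group the difference was not tested. How many of all genes met the same conditions was not counted, so the 4 are not shown to be particular to the members. By the 1.5-fold rule 4.24% of all genes had a higher difference and 2.62% a lower one. Mrpl30 had intervals on opposite sides of 0, 0.34 [0.21, 0.47] for shSCR cells and −0.37 [−0.48, −0.25] for shCerS4 cells, with a difference of −0.71. Mrpl22 had a difference of −0.65, past 1.5-fold. In Mrpl42 and Mrps7 the shCerS4 over shSCR ratio was below 0 with Caprin-1 and above 0 with IgG, with differences of −0.46 and −0.50. For Mrpl42 those ratios were −0.23 [−0.41, −0.05] and 0.23 [0.02, 0.44], and for Mrps7 −0.10 [−0.19, −0.02] and 0.40 [0.27, 0.52]. With the other scalings the IgG interval of Mrpl42 included 0, as with 0.13 [−0.08, 0.34] by the trimmed mean, so Mrpl42 no longer met this condition, whereas Mrps7, Mrpl30 and Mrpl22 still met theirs.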

How the results depend on the processing

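No paired analysis was possible because each group had 1 library and the labels gave no replicate numbers. For the same reason leaving out a replicate was not possible. The members' medians kept their direction under every alternative run. With scaling by the trimmed mean, by the upper quartile and by the median of ratios, in that order, the members higher with Caprin-1 over IgG numbered 47, 49 and 47 in shSCR cells (median 0.71, 0.72 and 0.72) and 30, 30 and 30 in shCerS4 cells (median 0.52, 0.51 and 0.51). Of all genes 18.4% to 19.1% were higher in shSCR and 14.4% to 15.1% in shCerS4 cells. In shCerS4 over shSCR these scalings gave 1, 1 and 1 higher and 12, 12 and 13 lower members with Caprin-1, and 9, 8 and 9 lower with IgG. With Caprin-1 13.8% to 14.8% of all genes were higher and 13.8% to 14.6% lower, and with IgG 13.8% to 14.6% were lower. The median of ratios also gave a Caprin-1 knockdown median of −0.16 and 4 members with a lower difference (3.13% of all genes). A threshold of 2-fold left 4 and 2 members higher over IgG in shSCR and shCerS4 cells, with 1.69% and 0.934% of all genes. At 2-fold 0 were higher and 1 lower in the Caprin-1 knockdown comparison (6.25% and 4.95% of all genes), 2 higher and 0 lower in the IgG one (5.69% and 5.34%), and 0 had a lower difference (0.35%). Against genes of like genomic span the Caprin-1 over IgG medians were 0.32 and 0.21. With a mean of at least 20 CPM 1 member had a lower difference (1.15% of all genes), since fewer members were compared. With the most abundant transcript alone 2 members had a higher difference (8.86% of all genes), Mrpl48 had −0.21 over IgG in shSCR cells, and its difference was 0.60; the cause was not tested. Depth limits the rarest members most, and 1 library per group limits every result: intervals cover counting error only.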
